A study of Bos taurus with 30 samples.

Results

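Trophoblast Kunitz domain proteins (TKDP) are secreted proteins of the ruminant trophoblast, the outer cell layer of the conceptus. Their genes were taken as every row of the count table whose Entrez gene ID maps to a cattle symbol that starts with TKDP, which gave TKDP1 (gene ID 404076), TKDP2 (503553) and TKDP4 (404075), 3 of 35092 rows. Of the 5 names looked for, TKDP3 and TKDP5 matched no symbol and were not analysed here. The question asked of them was how their transcripts differed between in vitro produced (IVP) and in vivo derived (IVV) embryos, and between the embryonic disc (ED), from which the fetus forms, and the surrounding extra-embryonic membranes (EEM).

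The embryos were Holstein conceptuses of day 15, all sired by 1 bull, and the libraries came from 7 IVP and 9 IVV ED and from 6 IVP and 8 IVV EEM. For IVP embryos, oocytes from slaughterhouse ovaries were matured, fertilised and grown without serum, and the blastocysts were placed in synchronised recipient cows on day 7 and recovered 8 days later. IVV embryos were conceived by insemination of cows stimulated with follicle-stimulating hormone and recovered from these donors after 15 days. Of the 17 embryos, 13 (5 IVP and 8 IVV) gave both tissues, and they are named here as in the sample titles. Each procedure used a pair of cows, so that an effect of the cow and one of the procedure cannot be told apart, and neither the cow nor the sex and length of a single embryo is in the labels. The p-values therefore measure the spread between these embryos, of which several shared a uterus.

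A Kunitz domain is a small fold held together by disulfide bonds, best known from aprotinin, the pancreatic trypsin inhibitor of cattle. An exposed loop of the domain enters the active site of trypsin-like serine proteases and blocks it. In TKDP this domain is joined to an N-terminal part that other Kunitz proteins lack. Ruminant trophoblast secretes these proteins into the uterine lumen around the time when the mother recognises the pregnancy, together with interferon tau, which keeps the corpus luteum from regressing, and with pregnancy-associated glycoproteins (PAG), relatives of the aspartic proteases.

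Libraries held from 48713218 to 63037371 counts, and levels are given as CPM (counts relative to the library total) after TMM scaling. Gene lengths were not used, so that CPM compare libraries within a gene and not the members with each other. The members together held between 0.284% and 1.82% of the counts of a library, with group medians of 0.669% in the IVP ED, 1.25% in the IVV ED, 0.541% in the IVP EEM and 1.37% in the IVV EEM. The epiblast marker NANOG averaged 18.14 ± 12.03 CPM (SD, n = 9) in the IVV ED and 7.13 ± 3.63 CPM (SD, n = 7) in the IVP ED, against 0.0561 CPM in the IVV EEM and 0.0157 CPM in the IVP EEM. SOX2, another epiblast gene, had 0 counts in every library, which by counting alone allows up to 3 counts in each. Whether reads of SOX2 could be assigned to its row was not tested, so that its level in these tissues is not known. Trophoblast markers were present in both tissues: CDX2 averaged 55.2 to 70.0 CPM in the ED groups and 66.8 to 86.8 CPM in the EEM groups, and the summed level of the 21 genes of the trophoblast list ran from 14040 to 71690 CPM in the IVP ED, 22030 to 34690 in the IVV ED, 30500 to 72430 in the IVP EEM and 29460 to 41600 in the IVV EEM. The ED libraries thus held trophoblast transcripts too. In bulk tissue, fewer cells of a type and less RNA per cell cannot be told apart. Copies of a gene family share sequence, and the counts of any member may include or lack reads of another.

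**Figure D1:**
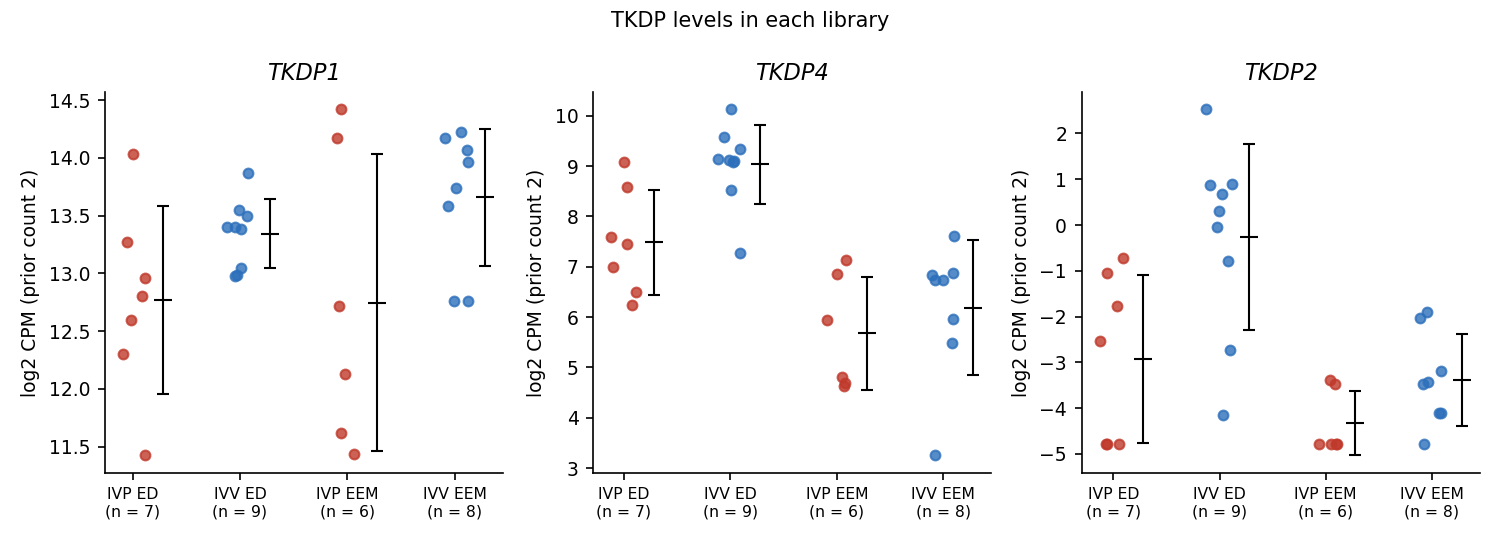
Each point is 1 library, with its level as log2 CPM (prior count of 2) on the vertical axis and the group on the horizontal axis, and the bars are the mean ± SD. TKDP4 in the ED sat lower in IVP than in IVV libraries, whereas the IVP EEM libraries spread for TKDP1 from 2769 to 21940 CPM.

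TKDP4 was the member that changed between IVP and IVV embryos in the ED, where its level was lower in the IVP embryos. It ranged in the IVP ED from 75.1 to 540.3 CPM with a median of 174 CPM, and in the IVV ED from 155 to 1117 CPM with a median of 556 CPM. The groups overlapped: 3 of 7 IVP libraries lay below the lowest IVV library, and 7 of 9 IVV libraries lay above the highest IVP library. All 7 IVP libraries lay below the IVV median. The means were 226 ± 172 CPM (SD, n = 7) and 585 ± 264 CPM (SD, n = 9). TKDP4 was 2.65-fold lower in the IVP ED, with a log2 fold change of -1.41 (SE 0.39, 95% interval -2.16 to -0.65, adjusted p = 0.0291, edgeR's quasi-likelihood test with 1 surrogate variable). Of TKDP1 and TKDP4 it was the 1 called, against 6.34% of the 15733 genes tested in the ED, of which 4.95% were lower and 1.40% higher in IVP embryos.

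The TKDP4 difference kept its sign in each repeat of the fit, but its adjusted p stood close to 0.05. It rose to 0.0604 without embryo IVP14, 0.0521 without IVPF10, 0.0595 without IVPF14, 0.0545 without IVPF15, 0.0543 without VE26, 0.0513 without VE28, 0.0584 without VE29 and 0.0630 without VE6. Over the 16 fits without 1 embryo, the log2 fold change ran from -1.80 to -1.21 and the adjusted p from 0.00521 to 0.0630. With the trophoblast score of each library (the mean log2 CPM of the trophoblast list, which holds no TKDP) as a covariate, it was -1.54 with an adjusted p of 0.0119. The letter A or C that ends the sample titles has no stated meaning. Among titles with A the mean log2 difference in the ED was -1.26 (2 IVP against 2 IVV), and among those with C it was -1.63 (5 against 7). With the letter as a term in the fit the adjusted p was 0.0616, and with 2 surrogate variables it was 0.0536.

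TKDP2 was found at low counts, and it passed the filter on low counts in the ED through the IVV libraries, the group where it is high. Its fitted values between the procedures are therefore a description, and it is not counted among the members called. In the IVP ED it had between 0 and 30 counts with a median of 6, and 3 of 7 libraries (IVPF10, IVPF14 and IVPF15) had 0. The titles of these 3 start with IVPF, as does that of IVPF13, which had 30. The meaning of IVP against IVPF in the titles is not stated, and a difference between them was not tested. The IVV ED had between 1 and 376 counts with a median of 75, led by VE6. In CPM, 6 of 9 IVV libraries lay above the highest IVP library, and the means were 0.201 ± 0.233 (SD, n = 7) and 1.52 ± 1.71 (SD, n = 9). The log2 fold change of -2.89 (SE 0.89, 95% interval -4.64 to -1.14) had an adjusted p of 0.0544 in edgeR's quasi-likelihood test. Over the 16 fits without 1 embryo the adjusted p ran from 0.0178 (without VE19) to 0.177 (without VE28), under 0.05 in 4 and over it in 12, and with the title letter as a term it was 0.219. Within the titles that end in C, the mean log2 difference was -3.62. The 2 IVP and 2 IVV libraries with A differed by 0.69 in the other direction.

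TKDP1 held most of the counts of the 3 members and did not pass the test between the procedures in the ED. The IVP ED ran from 2747 to 16760 CPM with a median of 7172 CPM, and the IVV ED from 8043 to 14930 CPM with a median of 10810 CPM. Of the 7 IVP libraries, 5 lay below the lowest IVV library, while IVP10 lay above the highest one. The means were 7971 ± 4483 CPM (SD, n = 7) and 10600 ± 2201 CPM (SD, n = 9), and the log2 fold change of -0.44 (SE 0.26, 95% interval -0.95 to 0.08, adjusted p = 0.415) did not pass edgeR's quasi-likelihood test. The interval allows a level up to 1.94-fold lower in the IVP ED. Without IVP10 the log2 fold change was -0.76, with an adjusted p of 0.0547. The IVP embryos were the more spread, with an SD of 0.81 on the log2 scale against 0.29 in the IVV ED, a difference in spread that was not tested. The mean log2 difference was -0.26 among titles with A and -0.68 among those with C.

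In the EEM neither tested member passed the test between IVP and IVV embryos. TKDP1 ran from 2769 to 21940 CPM with a median of 5612 CPM in the IVP EEM and from 6922 to 19160 CPM with a median of 14840 CPM in the IVV EEM. Of the 6 IVP libraries, 4 lay below the lowest IVV library, and IVP10 and IVPF13 lay among the highest. The log2 fold change was -0.54 (SE 0.41, 95% interval -1.34 to 0.26, adjusted p = 0.707), and the SD on the log2 scale was 1.28 in IVP and 0.59 in IVV embryos. Without IVPF13 the log2 fold change was -1.02 for TKDP1 (adjusted p = 0.197) and -1.03 for TKDP4 (adjusted p = 0.253). With the trophoblast score as a covariate, TKDP1 was lower in the IVP EEM, with a log2 fold change of -1.01 and an adjusted p of 0.0433.

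TKDP4 ran from 24.9 to 140 CPM with a median of 44.5 CPM in the IVP EEM and from 9.49 to 197 CPM with a median of 107 CPM in the IVV EEM. The groups overlapped over nearly their whole range, with the lowest value in an IVV library, that of VE19. The log2 fold change was -0.52 (SE 0.44, 95% interval -1.39 to 0.35, adjusted p = 0.776). By title letter the sign was not the same: the mean log2 difference of TKDP4 was 0.94 among titles with A (3 IVP against 2 IVV) and -0.91 among those with C (3 against 6). TKDP2 had between 0 and 3 counts in the IVP EEM, with 4 of 6 libraries at 0, and between 0 and 12 counts in the IVV EEM, and was below the filter on low counts. Since 5 of 8 IVV libraries were also at or under the floor of 3 counts, no fold is given. In the EEM, 0 of the 2 tested members were called by edgeR's quasi-likelihood test, against 3.81% of the 14718 genes tested. At an unadjusted p under 0.05 the count was 0 too, and it was 0 with DESeq2. Whether the difference between the procedures was larger in the ED than in the EEM was tested by the interaction described further on.

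**Figure D2:**
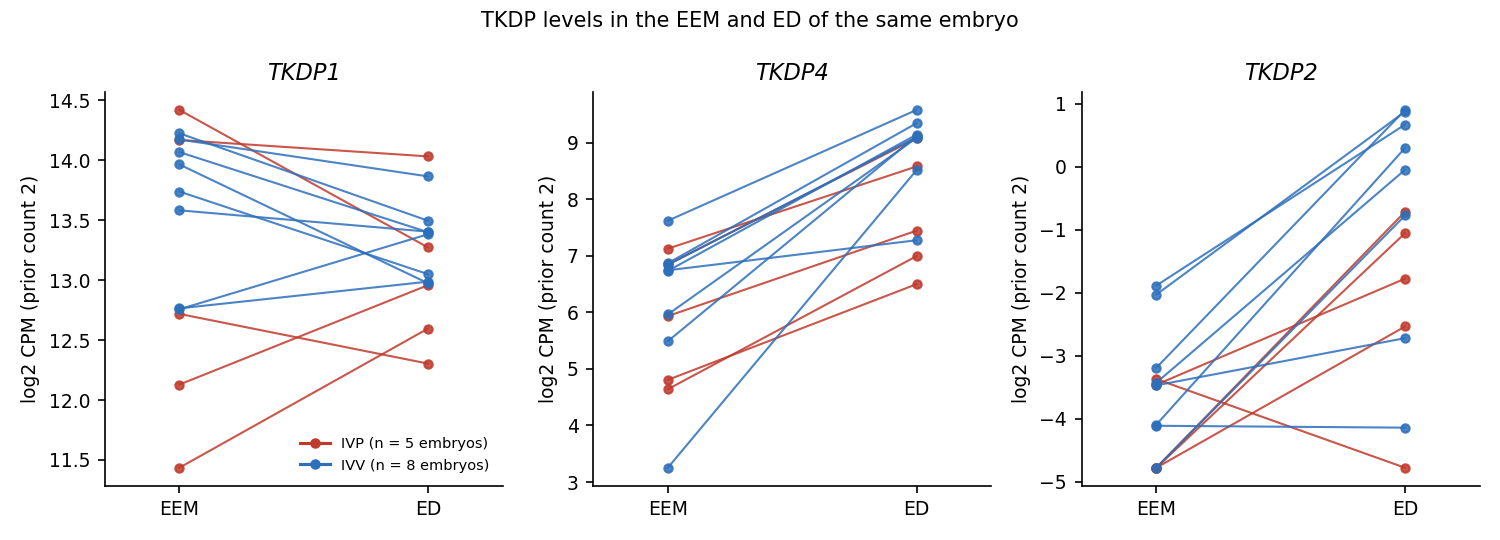
Lines join the EEM and the ED of 1 embryo (5 IVP and 8 IVV embryos), with log2 CPM (prior count of 2) on the vertical axis. All 13 lines of TKDP4 rise towards the ED, 11 of 13 lines of TKDP2 rise, and those of TKDP1 go either way.

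Within an embryo, TKDP4 was higher in the ED than in the EEM, while TKDP1 did not pass the test. TKDP4 was higher in the ED of 13 of 13 embryos. Its ratio of ED to EEM level ran from 1.45 in VE5 to 38.6 in VE19 with a median of 4.79. The range was 2.74 to 5.12 in the 5 IVP embryos (median 3.24) and 1.45 to 38.6 in the 8 IVV embryos (median 5.44). The log2 fold change with the embryo as a block was 2.35 (SE 0.27, 95% interval 1.81 to 2.89, adjusted p = 2.27e-06), a 5.10-fold higher level in the ED. It was 2.68 (SE 0.34, adjusted p = 6.12e-06) within IVV embryos and 1.81 (SE 0.40, adjusted p = 0.00810) within IVP embryos, in edgeR's quasi-likelihood test. TKDP4 was 1 of the 2 tested members called, against 21.0% of the 14898 genes tested, of which 12.8% were higher in the ED. Without any 1 embryo the log2 fold change stayed between 2.15 and 2.50.

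For TKDP1 the ratio of ED to EEM level ran from 0.451 in IVPF13 to 2.24 in IVPF14 with a median of 0.808. It was higher in the ED of 4 of 13 embryos (IVP11, IVPF14, VE19 and VE24). The log2 fold change of -0.18 (SE 0.18, 95% interval -0.53 to 0.17, adjusted p = 0.504) did not pass edgeR's quasi-likelihood test, and the interval allows no more than a 1.44-fold lower level in the ED. With the trophoblast score as a covariate the value changed sign, to 0.02.

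TKDP2 had more CPM in the ED in 11 of 13 embryos, with the exceptions of IVPF14, which had 0 counts in the ED and 3 in the EEM, and VE19, which had 1 count in each. Where the groups of tissue and procedure were kept apart, it passed the filter on low counts through its counts in the IVV ED, the group where it is highest, so that here too its fitted values are a description and it is not counted among the members called. The fitted log2 fold change within IVV embryos, 5 of 8 of which were at or under the floor in the EEM, was 3.57 (SE 0.71, 95% interval 2.18 to 4.96, adjusted p = 0.000875, edgeR's quasi-likelihood test). Within IVP embryos, whose EEM were all at or under the floor, it was 3.13 with an adjusted p of 0.103, and it ran from 2.43 without IVPF13 (adjusted p = 0.331) to 4.41 without IVPF14 (adjusted p = 0.0157). Both values depend on the prior count. TKDP4 was called higher in the ED within either procedure, against 15.6% of the 16784 genes tested within IVV embryos and 4.18% within IVP embryos.

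The interaction of tissue and procedure asked whether the difference between ED and EEM was unlike in IVP and IVV embryos. For TKDP4 it was -0.87 on the log2 scale (SE 0.50, 95% interval -1.86 to 0.12, adjusted p = 0.606). For TKDP1 it was 0.36 (SE 0.36, 95% interval -0.34 to 1.06, adjusted p = 0.860). The fitted value of TKDP2, which is not counted, was -0.44, with an adjusted p of 0.981. Of TKDP1 and TKDP4, 0 were called by edgeR's quasi-likelihood test, against 1.02% of 16784 genes. At an unadjusted p under 0.05 the count was 0, and it was 0 with DESeq2. TKDP4 passed the test of IVP against IVV in the ED and not in the EEM, and these values do not show that the difference itself was unlike in the tissues.

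**Figure D3:**
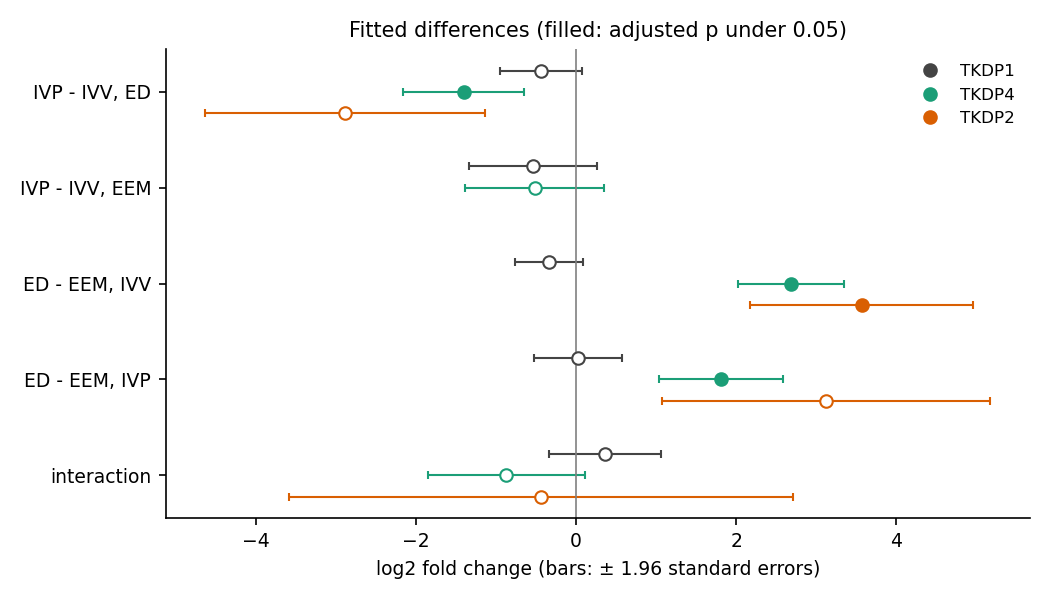
Fitted log2 fold changes are on the horizontal axis for each member and comparison, with bars for the 95% interval, filled where the adjusted p is under 0.05. Filled points stand for TKDP4 in the ED of IVP against IVV embryos (-1.41) and in ED against EEM of either procedure (2.68 and 1.81), and for TKDP2 in ED against EEM of IVV embryos (3.57), where it passed the filter through its counts in the IVV ED.

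The make-up of the family was then compared as each member's share of the counts of all 3, which does not depend on how a library is scaled. Genes of the family without a TKDP symbol, if there are any, are not in these shares. In the ED, TKDP4 held 2.64 ± 0.86% of the family counts in IVP embryos (SD, n = 7, 1.44% to 3.72%) and 5.11 ± 1.85% in IVV embryos (SD, n = 9, 1.89% to 8.54%). VE5 was the only IVV library within the IVP range, and VE6 held the largest share. The difference passed a two-sided exact permutation test (p = 0.00367, adjusted p = 0.0110 over the 6 tests of 3 members in each tissue). TKDP1 held the complement, with 97.4 ± 0.86% in IVP and 94.9 ± 1.86% in IVV embryos (exact permutation p = 0.00350, adjusted p = 0.0110), and the shares are not independent of each other. These calls remained without any 1 of the 17 embryos, with adjusted p of at most 0.0252.

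In the EEM, TKDP4 held 0.754 ± 0.18% of the family counts in IVP embryos (SD, n = 6) and 0.632 ± 0.26% in IVV embryos (SD, n = 8), a difference within the spread (exact permutation p = 0.368, adjusted p = 0.442). The lowest share of TKDP4 in the ED, 1.44%, was above the highest in the EEM, 1.05%. The share of TKDP2, which rests on low counts, is a description. It averaged 0.0021% of the family counts in the IVP ED, where 3 of 7 libraries had 0 counts. In the IVV ED it averaged 0.0132%, with 0.0438% in VE6. The exact permutation p was 0.0170 (adjusted p = 0.0339), and as a log2 ratio the adjusted p was 0.0594. As a share, its adjusted p rose to 0.0647 without IVPF10, IVPF14 or IVPF15 and to 0.0603 without VE26, VE28, VE29, VE5 or VE6.

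**Figure D4:**
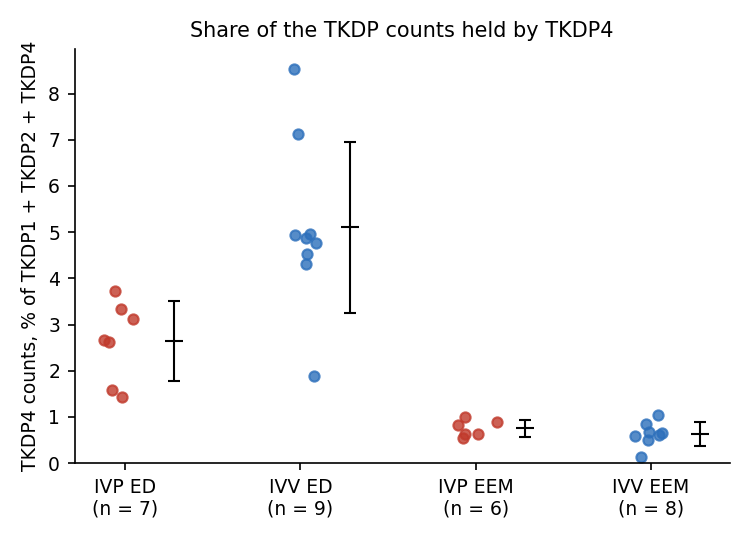
Each point is 1 library and the vertical axis is the share of TKDP1, TKDP2 and TKDP4 counts held by TKDP4, in percent, with the mean ± SD beside each group. The IVV ED averaged 5.11%, the IVP ED 2.64%, and both EEM groups stayed at or below 1.05%.

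Whether an embryo with a high level in the EEM also had a high level in the ED was examined over the 13 embryos with both tissues. For TKDP1, Pearson's r between the log2 CPM of the tissues was 0.672 (permutation p = 0.0112, adjusted p = 0.0335 over 3 members) and Spearman's rho was 0.720 (permutation p = 0.00763, adjusted p = 0.0229). Without the 2 embryos farthest from the median in the EEM, r was 0.599. Within the 8 IVV embryos r was 0.408 (exact permutation p = 0.307) and rho 0.548 (exact permutation p = 0.171), so that the relation was not shown within IVV embryos, and none was computed over the 5 IVP embryos alone. For TKDP4, r was 0.483 (permutation p = 0.0902, adjusted p = 0.135) and rho 0.593 (permutation p = 0.0369, adjusted p = 0.0553). For TKDP2, r was 0.339 (permutation p = 0.254) and was -0.059 without the 2 farthest embryos.

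The members were also compared with the trophoblast score across the 16 ED libraries. The score averaged 7.49 ± 0.53 (SD, n = 7) in the IVP ED and 7.40 ± 0.20 (SD, n = 9) in the IVV ED. Pearson's r with the score was 0.480 for TKDP1 (permutation p = 0.0605, adjusted p = 0.182 over 3 members), 0.207 for TKDP4 (permutation p = 0.439, adjusted p = 0.658) and -0.006 for TKDP2 (permutation p = 0.983). Spearman's rho was 0.312, 0.179 and -0.065 (permutation p = 0.240, 0.506 and 0.811). Without the 2 libraries farthest from the median score, r was 0.354, 0.237 and -0.195. Within the 7 IVP libraries r was 0.661 for TKDP1, 0.468 for TKDP4 and 0.315 for TKDP2 (exact permutation p = 0.101, 0.292 and 0.467), and within the 9 IVV libraries it was 0.372, 0.279 and -0.288 (exact permutation p = 0.328, 0.481 and 0.459). These values moved with the libraries used: without the 2 farthest from the median score, r was 0.907, 0.922 and 0.836 within the IVP libraries and -0.038, 0.209 and -0.444 within the IVV libraries, for which no p was computed. None of the relations over all libraries of a set passed the threshold.

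**Figure D5:**
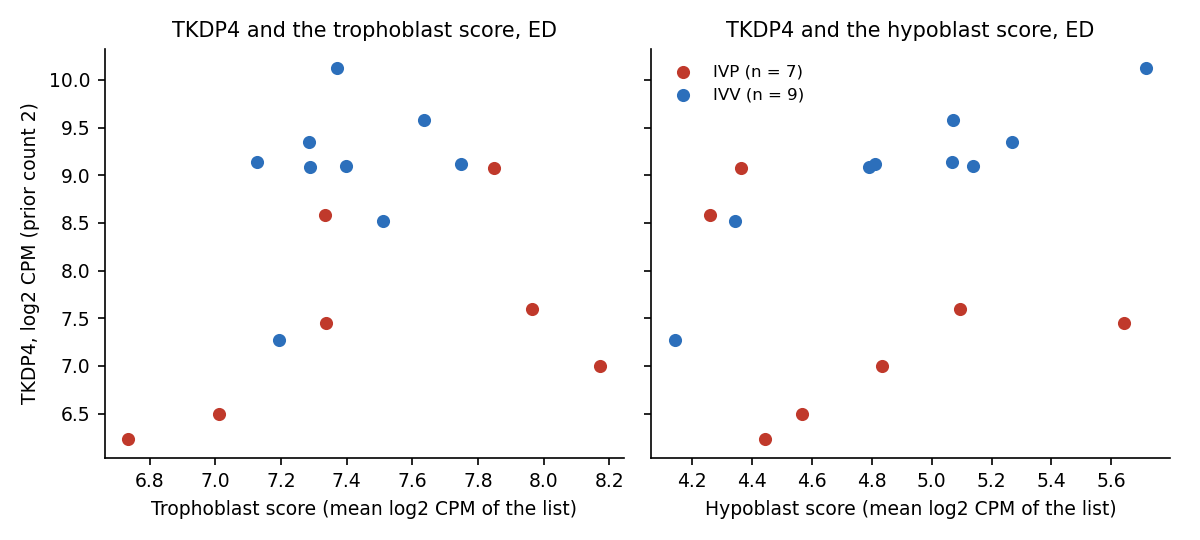
Each point is the ED library of 1 embryo, with TKDP4 as log2 CPM (prior count of 2) on the vertical axis against the trophoblast score (left) and the hypoblast score (right), both as mean log2 CPM of a marker list. At a like trophoblast score most IVV points lay above the IVP points. Pearson's r with the hypoblast score was 0.913 in the 9 IVV libraries and -0.204 in the 7 IVP libraries, a difference that was not tested. The hypoblast score was 1 part of 18 relations examined after the values had been seen. Spearman's rho in the IVV libraries was 0.867, with an adjusted p of 0.0811 by exact permutation.

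Markers of the trophoblast were counted in the same fits. Of the 20 tested genes of the trophoblast list, 0 were called between IVP and IVV embryos in either tissue by edgeR's quasi-likelihood test or DESeq2, with 2 at an unadjusted p under 0.05 in each tissue and list medians of 0.28 in the ED and 0.08 in the EEM. Between the tissues, HAND1, a transcription factor of trophoblast and mesoderm, was higher in the ED (log2 fold change 2.39), and 6 of the 20 were lower, against 12.8% and 8.16% of all genes tested, among them the keratin KRT18 (-0.44) and the steroidogenic enzyme CYP11A1 (-0.61). The median of the list was -0.21, beside -0.09 for all genes tested.

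Of the interferon tau genes, 3 were tested and 0 were called between IVP and IVV embryos in either tissue by edgeR's quasi-likelihood test or DESeq2, with 0 at an unadjusted p under 0.05. IFNT3 averaged 1228 ± 641 CPM (SD, n = 7) in the IVP ED and 1342 ± 290 CPM (SD, n = 9) in the IVV ED. It was lower in the ED than in the EEM, with a log2 fold change of -0.58 (SE 0.17, adjusted p = 0.0194, edgeR's quasi-likelihood test), as was IFNT2 with -0.78 (SE 0.22, adjusted p = 0.0140), the opposite direction to TKDP4. These were 2 of the 3, against 8.16% of all genes, and DESeq2 called 1. Of the 5 tested PAG and related secreted products, 0 were called between the procedures in either tissue by edgeR or DESeq2, with 0 at an unadjusted p under 0.05. PAG12 had the direction of TKDP4 between the tissues, with a log2 fold change of 1.74 (SE 0.24, adjusted p = 1.74e-05) and averages of 25.4 and 28.5 CPM in the IVP and IVV ED against 9.09 and 7.81 CPM in the EEM. PAG11 was lower in the ED of IVV embryos (-0.79, SE 0.22, adjusted p = 0.0114).

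Genes with a Kunitz domain outside the family were also counted. Of 11 tested in the ED, COL6A3, a chain of collagen VI that carries a Kunitz domain at its end, was lower in IVP embryos (log2 fold change -1.88, SE 0.47, adjusted p = 0.0170) and none was higher, against 4.95% and 1.40% of all genes tested, with a list median of -0.41 beside -0.01 for all of them. In the EEM, 0 of 11 were called by edgeR or DESeq2, with 0 at an unadjusted p under 0.05. Between the tissues, COL6A3 (2.82), the amyloid precursor protein gene APP (0.95) and TFPI2, a tissue factor pathway inhibitor (0.81), were higher in the ED, 3 of 11 against 12.8% of all genes, with a median of 0.36 beside -0.09 for all genes tested.

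Kunitz domains are known to block trypsin-like serine proteases, and a list of proteases of this wider family was counted. Whether a Kunitz domain blocks the product of each listed gene was not tested. Of 19 tested in the ED, 1 was higher and 4 were lower in IVP embryos, against 1.40% and 4.95% of all genes tested. The lower ones included HTRA1 (-4.69, SE 0.53, adjusted p = 8.94e-06), PLAT, the tissue plasminogen activator (-3.84, SE 0.48, adjusted p = 2.72e-05), and HTRA3 (-2.45, SE 0.70, adjusted p = 0.0376), all at means under 5 CPM in the IVV ED. The list median was 0.10 beside -0.01 for all genes. In the EEM, 0 of 14 were called by edgeR or DESeq2, with 1 at an unadjusted p under 0.05. Between the tissues, 8 of 17 were higher in the ED and 1 was lower, against 12.8% and 8.16% of all genes, led by PRSS35 (3.13), the coagulation factor F7 (3.05) and HPN, the membrane protease hepsin (1.06).

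Markers of other cells moved with some of these comparisons. Of the primitive streak and mesoderm list, 10 of 14 genes were lower in the IVP ED than in the IVV ED with a list median of -2.12, and 2 of 8 epiblast genes were lower with a median of -0.76, against 4.95% of all genes. The hypoblast list had 0 of 16 called in the same comparison by edgeR or DESeq2, with 1 at an unadjusted p under 0.05, and 8 of 16 were higher in the ED than in the EEM, against 12.8% of all genes. The summed maternal blood list reached at most 43.3 CPM and the maternal uterus list at most 39.6 CPM in any library, and HBB, a globin of red cells, averaged at most 0.0106 CPM in a group. Of the maternal uterus list, 2 of 6 tested genes, MSX1 and DES, were lower in the IVP ED, against 4.95% of all genes. MSX1 and DES, 2 of 4 tested between the tissues, were also higher in the ED than in the EEM, against 12.8%. So were ALAS2 and CD79A, 2 of 3 of the maternal blood list. PGR, also of the uterus list, averaged 0.964 and 0.931 CPM in the IVP and IVV ED and 0.932 and 0.850 CPM in the EEM. Whether maternal or embryonic cells gave the transcripts of these lists was not tested. The part of these lists in the TKDP4 difference was not tested.

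Within the 14 EEM libraries, the genes whose levels went most closely with each member were listed after the mean of the IVP or IVV group was taken away. This is a description with no test, over libraries that share depth and composition. For TKDP1 they were PRXL2A (r = 0.970), the fatty acid desaturase FADS2 (0.958) and the homeobox gene DLX6 (0.937). For TKDP4 they were the ubiquitin ligase gene RNF157 (0.948), an interferon tau gene named IFN-tau-c1 (0.946) and the dehydrogenase gene DHRS9 (0.945). TKDP1 and TKDP4 had an r of 0.828 with each other in the EEM and of 0.770 in the 16 ED libraries, and TKDP2 in the ED had an r of 0.469 with TKDP1 and 0.519 with TKDP4. TKDP1 also went with the secreted products PAG11 (0.931), IFNT2 (0.897), PAG2 (0.869) and IFNT3 (0.864) in the EEM. For TKDP4 the values were 0.654, 0.831, 0.869 and 0.712 in the same order.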

How the data were processed

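Per the labels and the study's methods, poly(A)-selected, non-stranded libraries were sequenced as paired reads on DNBSEQ and filtered with SOAPnuke. The authors aligned the reads with STAR 2.7.0b to ARS-UCD1.3 and deposited raw gene counts from featureCounts (Subread 2.0.3) for 30 libraries, and FastQC 0.11.9 and Trimmomatic are also named in the submitters' processing notes. Small counts were more often 2 (19289 entries) than 1 (15257 entries), so halved counts were tried. Symbols came from RefSeq's table of ARS-UCD2.0, which named 31630 of 35092 gene IDs (99.5% of counts); its positions were used only for the order of genes next to the members.

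Counts were filtered with filterByExpr (at least 10 counts), scaled by TMM and tested with edgeR 4.0.16 in R 4.3.3 by the quasi-likelihood test, and p-values were adjusted after Benjamini and Hochberg over all genes tested, with a threshold of 0.05. IVP and IVV embryos were compared per tissue with 1 surrogate variable from svaseq (sva 3.50.0), since the study used sva to control for morphology, and DESeq2 1.42.0 was also run. ED and EEM were compared in the 13 embryos with both tissues, with the embryo as a block, since both pieces of 1 embryo carry its name in the titles. IVP and IVV embryos share no numbers. The 95% intervals take the log2 fold change and its SE as normal, and limits from 3 counts cover counting error only. Shares were compared by exact permutation, and correlations over more than 9 samples by 100000 permutations. Alternatives were other numbers of surrogate variables, DESeq2, RLE factors, no filter, halved counts, the title letter or the trophoblast score as a term, no embryo block, and fits that each lacked 1 embryo (within each procedure, chosen after seeing the data). The steps were tested on simulated data.

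The genes named are all members and, of each of the 10 hand-written lists, at most the 3 called genes with the smallest p per comparison; 3 genes per member were named for likeness. Outside this rule, NANOG, SOX2, CDX2, HBB and PGR are named as tissue markers, IFNT and PAG genes for their levels beside the members, and the neighbours of the members after their values had been seen. A further part of the rule, on RefSeq descriptions, could not be applied, since the table holds none. Members and lists were chosen with earlier results of these data known. Methylation data were not analysed here.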

Additional observations from a re-analysis of the deposited data

How the results depend on the processing

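Counting error limits TKDP2 alone, which had at most 3 counts in 15 of 30 libraries. The numbers called given here are of TKDP1 and TKDP4. The values of TKDP2, which passed the filter on low counts through the IVV ED, are a description. In the ED, 1 member (TKDP4) was called lower in IVP embryos. TKDP4 stayed called without a surrogate variable (934 of 15733 genes called), without the filter on low counts (1846 of 23686) and with halved counts (842 of 14390). In these 3 fits TKDP2 also had an adjusted p under 0.05. The count was 0 with 2 surrogate variables (TKDP4 adjusted p = 0.0536, 825 of 15733 genes called) and with the title letter as a term (0.0616, 699 of 15733). Without 1 embryo, TKDP4 was called in 8 of 16 fits. The cause was not tested. In the EEM, 0 members were called, and 1 (TKDP1) with the trophoblast score as a covariate. For ED against EEM, 1 (TKDP4) was called, also without the filter, where TKDP2 had a log2 fold change of 3.43. Within IVP embryos 1 (TKDP4) was called, and TKDP2 had an adjusted p under 0.05 beside it with DESeq2, without the filter and with halved counts. In the unpaired fit with no embryo block the count was 0 (TKDP4 adjusted p = 0.0612), and TKDP1 turned from 0.02 to -0.29. The unpaired fit changed no other call. The relation of ED and EEM levels held for 1 member over 13 embryos and for 0 within IVV embryos. Signs turned for TKDP1 in ED against EEM with the trophoblast score (0.021), for the TKDP2 interaction with DESeq2 (0.018) and without 1 embryo (-1.14 to 0.86), for the TKDP2 share in the EEM without 1 embryo (-0.00036 to 0.000105 percentage points) and for the r of TKDP2 (ED and EEM without the 2 farthest embryos -0.059, trophoblast score within IVP embryos 0.315). The TKDP2 share in the ED, a description, had an adjusted p of 0.0594 as a log2 ratio in the exact permutation test. The TKDP4 call for ED against EEM and that within IVV embryos held under each alternative run, without any 1 embryo included. Fits within a procedure that lacked 1 embryo were added after the data had been seen, and TKDP4 was called in each. TKDP2 had an adjusted p under 0.05 in each within IVV embryos, and within IVP embryos only without IVPF14 (4.41, adjusted p = 0.0157). TKDP1 within IVP embryos ran from -0.23 to 0.32. Over all genes, calls ran in the ED from 639 to 1160 and in the EEM from 426 to 729 without 1 embryo, against 998 and 561. Under the other alternatives they ran from 699 to 1846 in the ED and from 376 to 1211 in the EEM. For ED against EEM they ran from 1553 to 3895, against 3124, and within IVP embryos from 598 to 1201, against 810.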

Other observations

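The genes beside TKDP1, TKDP4 and TKDP2 in the order of protein-coding genes of ARS-UCD2.0 were looked at after the values of the members had been seen. The RefSeq table gives their symbols and synonyms but no description, and their membership of the family was not tested. LOC107133059, next to TKDP1, averaged 3.97 CPM in the IVP ED and 8.36 CPM in the IVV ED, with a log2 fold change of -1.15 (SE 0.40, adjusted p = 0.0883, edgeR's quasi-likelihood test), the sign of TKDP4, and in the EEM it was -1.24 (SE 0.41, adjusted p = 0.0987). LOC618696, next but one to TKDP1, held between 1.54% and 9.03% of the counts of a library. It averaged 44780 ± 20140 CPM (SD, n = 7) in the IVP ED, 28210 ± 4799 CPM (SD, n = 9) in the IVV ED, 40030 ± 12310 CPM (SD, n = 6) in the IVP EEM and 39360 ± 15240 CPM (SD, n = 8) in the IVV EEM. Its log2 fold change in the IVP ED was 0.59 (SE 0.23, adjusted p = 0.140, edgeR's quasi-likelihood test), of opposite sign to that of TKDP4. It was not called in the EEM (0.06, adjusted p = 0.991) or between the tissues (-0.27, adjusted p = 0.276). Its r with TKDP1, with group means taken away, was 0.592 in the EEM and -0.231 in the ED.

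LOC404103, whose synonyms include BPTI, the abbreviation of bovine pancreatic trypsin inhibitor, lies beyond TKDP2 in this order. It was higher in the ED than in the EEM, as TKDP4 was, with a log2 fold change of 1.42 (SE 0.24, adjusted p = 0.000193). It averaged 28.7 ± 19.8 CPM (SD, n = 9) in the IVV ED and 10.04 ± 5.85 CPM (SD, n = 7) in the IVP ED, with a log2 fold change of -1.49 (SE 0.48) that did not pass the test (adjusted p = 0.0669, edgeR's quasi-likelihood test). LOC404061, LOC616039 and WFDC2, also in this stretch, did not pass the test between the procedures in either tissue. PTI, the pancreatic trypsin inhibitor gene, averaged at most 0.0134 CPM in a group.

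TKDP4 was set against the epiblast, hypoblast and primitive streak scores of the ED libraries after its values had been seen, as 18 relations over 3 members and both procedures. Within the 9 IVV ED libraries its level rose with the hypoblast score, with Pearson's r of 0.913 (exact permutation p = 0.000411, adjusted p = 0.00739). Spearman's rho was 0.867 (exact permutation p = 0.00451, adjusted p = 0.0811), and r was 0.854 without the 2 libraries farthest from the median score. Within the 7 IVP ED libraries r was -0.204 (exact permutation p = 0.683, adjusted p = 0.768) and rho -0.286 (exact permutation p = 0.556). The difference between the procedures was not tested. TKDP1 fell with the epiblast score in the IVV ED, with r of -0.832 (exact permutation p = 0.00452, adjusted p = 0.0407) and rho of -0.750 (exact permutation p = 0.0255, adjusted p = 0.153), and r of -0.506 without the 2 farthest libraries. In the IVP ED that r was -0.764 (exact permutation p = 0.0532, adjusted p = 0.237) and rho -0.857 (exact permutation p = 0.0238, adjusted p = 0.153).

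The ED counterparts of the likeness lists, added after the EEM lists had been seen, were led for TKDP1 by HSF5 (r = 0.908), IFN-tau-c1 (0.905) and RTCA (0.905), for TKDP2 by the monoamine oxidase gene MAOA (0.847), and for TKDP4 by the cannabinoid receptor gene CNR2 (0.823), over 16 libraries with group means taken away and with no test. IFN-tau-c1 averaged 26.2 CPM in the IVP ED and 24.2 CPM in the IVV ED.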
